A study of Mus musculus with 3 samples.

Results

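Transforming growth factor beta (TGF-beta) signalling was described through 10 genes, the ligand Tgfb1, the receptors Tgfbr1 and Tgfbr2, the signal carriers Smad2, Smad3 and Smad4, the inhibitors Smad7, Ski and Skil, and Lrrc33, which is listed in the files under its current symbol Nrros. The genes were taken as a fixed list of names, and all 10 were found among the 15338 genes of the 3 count files. Microglia and neighbouring myeloid cells had been isolated from mouse brain at 8 weeks of age and sorted as CD11b+ CD45low Cx3cr1+ events, with 1 single-cell library for each of 3 genotypes. Control was labelled wild type and male, hCD33M was male, and hCD33m was female, so the hCD33m genotype and female sex cannot be told apart. The paper's text differs on this point and describes male mice of each genotype for its single-cell sequencing. The hCD33M and hCD33m mice carry human CD33, a sialic acid receptor of myeloid cells, as its long and its short isoform respectively, expressed from the Rosa26 locus after removal of a stop cassette by Cre. Cre was expressed from the Cx3cr1 locus, and GFP was made from the same transcript as the transgene. Whether the Control mice of these libraries also carried Cre is not given in the labels. All mice were perfused with the transcription inhibitors actinomycin D and triptolide, and anisomycin, an inhibitor of translation, was added to the brain storage buffer.

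TGF-beta1 is secreted as a latent complex, and Nrros holds this complex on the surface of microglia. Once released, the ligand binds the Tgfbr2 receptor chain, which activates the kinase Tgfbr1. This kinase phosphorylates Smad2 and Smad3, which join Smad4 and enter the nucleus. Smad7 acts as feedback inhibitor at the receptor, and Ski and Skil repress Smad-dependent transcription. Microglia are known to depend on this signal for their homeostatic identity.

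The libraries held 3482, 5100 and 5707 barcodes for Control, hCD33M and hCD33m, with 21529542, 28387611 and 32572995 unique molecular identifiers (UMIs, each standing for 1 captured transcript). The cell filter kept 3412, 5046 and 5612 cells, with a median of 5436.5, 5078.5 and 5137 UMIs. Pairs of libraries shared 7 to 10 barcodes. Clustering left out the 10 genes, the other ligand, receptor, Smad and regulator genes of the pathway and the Smad targets, but not the microglial genes known to depend on TGF-beta, and gave 11 clusters. Of these, 7 were named microglia-like and held 12466 cells, 1 was named BAM-like after border-associated macrophages and held 311 cells, 1 was named monocyte-like and held 69 cells, and the other 2 had few UMIs and stayed unnamed with 1224 cells. The 8 microglial markers supplied 2.39 to 2.60% of the UMIs of the microglia-like cells in the 3 libraries, while the 7 BAM markers supplied 0.001% in each. In the BAM-like cells the BAM markers supplied 0.348 to 0.444%, but the microglial markers supplied 1.16 to 1.57%, with none of them at 0. The 7 monocyte markers supplied 0.504 to 0.794% there, with 1 to 3 of them at 0, against 0.035 to 0.043% in the microglia-like cells. The label of microglia was therefore met in the microglia-like cells. The BAM-like class also held cells that carried a high share of microglial markers beside BAM markers, as described below. The monocyte-like cells drew 2.97 to 4.93% of their UMIs from the 7 monocyte markers and 0.130 to 0.313% from the microglial markers.

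To show the sequence context of genes with unlike patterns across these classes, the 250 bases before the annotated starts of Tgfbr1, Tgfbr2 and Nrros are given, 5′ to 3′ on the strand of the gene, from RefSeq on GRCm38.p6. Tgfbr1 has a first start just after chr4:47352972-47353221 and a second just after chr4:47385966-47386215, which lies 32994 bases inside the gene. The Tgfbr2 stretch is chr9:116175364-116175613 on the minus strand, and the Nrros stretch is chr16:32165595-32165844 on the minus strand. Capitals mark the Smad-binding element CAGAC and the core GAGGAAG bound by PU.1, the lineage factor of myeloid cells, with the reverse complements GTCTG and CTTCCTC searched as well. These letter strings do not overlap each other in any of the stretches shown.
Tgfbr1, first start: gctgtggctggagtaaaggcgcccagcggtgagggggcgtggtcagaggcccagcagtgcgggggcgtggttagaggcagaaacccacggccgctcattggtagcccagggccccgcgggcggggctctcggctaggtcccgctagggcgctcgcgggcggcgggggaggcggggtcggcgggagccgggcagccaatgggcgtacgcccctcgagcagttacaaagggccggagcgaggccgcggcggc
Tgfbr1, second start: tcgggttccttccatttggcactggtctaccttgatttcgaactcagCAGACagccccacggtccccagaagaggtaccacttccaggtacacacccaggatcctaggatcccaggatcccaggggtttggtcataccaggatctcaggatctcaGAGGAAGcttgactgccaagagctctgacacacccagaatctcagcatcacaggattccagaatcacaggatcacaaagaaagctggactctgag
Tgfbr2: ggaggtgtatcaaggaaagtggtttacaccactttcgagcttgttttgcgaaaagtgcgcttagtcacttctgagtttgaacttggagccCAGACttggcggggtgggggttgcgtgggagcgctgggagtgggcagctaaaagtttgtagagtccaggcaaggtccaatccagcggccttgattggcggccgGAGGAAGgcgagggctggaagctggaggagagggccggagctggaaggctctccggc
Nrros: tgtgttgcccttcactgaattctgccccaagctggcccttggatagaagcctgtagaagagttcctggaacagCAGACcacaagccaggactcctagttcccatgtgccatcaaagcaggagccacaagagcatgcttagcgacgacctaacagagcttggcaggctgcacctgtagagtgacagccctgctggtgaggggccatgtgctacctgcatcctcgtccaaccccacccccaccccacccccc

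Among 32851 mouse promoter stretches of this length, 42.2% held the Smad element and 10.6% held the PU.1 core. The second start of Tgfbr1 and the start of Tgfbr2 each held 1 of both, Nrros held 1 Smad element, and the first start of Tgfbr1 held neither. The same stretches of Tgfb1, Smad3 and Ski, which with the 3 genes above make the 6 of 10 genes matched in the promoter table, also held neither string. The G and C content was 52.8% before the second start of Tgfbr1, 58.4% before Tgfbr2 and Nrros, and 74.8% before the first start of Tgfbr1. These are matches of letters and not measured binding sites.

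In GENCODE vM21, on the same assembly, Tgfb1 lies at chr7:25687002-25705077, Tgfbr1 at chr4:47353222-47414931, Tgfbr2 at chr9:116084293-116175360, Smad3 at chr9:63646767-63757994, Ski at chr4:155154075-155222592, Skil at chr3:31095058-31122577 and Nrros at chr16:32142785-32165594. Smad2, Smad4 and Smad7 lie on chromosome 18. All 10 are protein-coding genes, and none shares exonic bases with another gene of that annotation.

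The first question was whether microglia of the CD33 genotypes differed in the machinery of TGF-beta signalling. Levels were close in all 3 libraries. In microglia-like cells, 0 of the 10 genes were 1.5-fold apart between any pair of libraries, against a background of 1.22% of 9739 genes for hCD33M over Control, 2.45% of 9755 genes for hCD33m over Control and 1.77% of 9735 genes for hCD33m over hCD33M. Levels are given as CPM, the UMIs of a gene scaled to a total of 1000000 UMIs of the class in a library, with no comparison of levels between genes, since these are not per length. With 1 library per genotype there was no test, and the 95% intervals cover counting error only.

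The ligand gene Tgfb1 stood at 418 CPM in Control, 399 CPM in hCD33M and 403 CPM in hCD33m. Control was highest by a log2 ratio of -0.06 (interval -0.11 to -0.02) for hCD33M over Control and -0.05 (-0.09 to -0.01) for hCD33m over Control. Nrros, which tethers the latent ligand, had 163 CPM in Control, 151 CPM in hCD33M and 133 CPM in hCD33m, and was lowest in hCD33m. Its log2 ratio of hCD33m over Control was -0.30 (-0.37 to -0.23), the lowest value among the 10 genes in any pair. It stayed between -0.32 and -0.28 under 12 other settings of scaling, cell choice and clustering.

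Of the receptors, Tgfbr1 had the opposite order of libraries and stood at 1051 CPM in Control, 1118 CPM in hCD33M and 1180 CPM in hCD33m. The log2 ratio of hCD33m over Control was 0.17 (0.14 to 0.19), the highest among the 10 genes in any pair. Tgfbr2, its partner chain, had 381 CPM in Control, 401 CPM in hCD33M and 356 CPM in hCD33m, so that hCD33m was lowest. The log2 ratio of hCD33m over hCD33M for Tgfbr2 was -0.17 (-0.21 to -0.13). The receptor chains thus did not follow a common order over the genotypes.

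The receptor-activated Smad2 had 49.0, 48.4 and 50.4 CPM in Control, hCD33M and hCD33m, and Smad3 had 53.7, 49.5 and 47.8 CPM. The interval of Smad2 included 0 in each pair. For Smad3 it lay below 0 only for hCD33m over Control, at -0.17 (-0.28 to -0.05). The common partner Smad4 was flattest, with 68.3, 68.8 and 68.6 CPM and log2 ratios of 0.01, 0.01 and -0.00 for hCD33M over Control, hCD33m over Control and hCD33m over hCD33M.

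Among the inhibitors, Smad7 had 345 CPM in Control, 348 CPM in hCD33M and 364 CPM in hCD33m. The log2 ratio of hCD33m over Control was 0.08 (0.03 to 0.12). Ski had 301, 320 and 311 CPM in Control, hCD33M and hCD33m, and the log2 ratio of hCD33M over Control was 0.09 (0.04 to 0.14). Skil had 267, 273 and 263 CPM in the same order, with a log2 ratio of -0.06 (-0.10 to -0.01) for hCD33m over hCD33M. Over the 10 genes the median log2 ratio was 0.01 for hCD33M over Control, -0.01 for hCD33m over Control and -0.02 for hCD33m over hCD33M, beside 0.01, -0.00 and -0.02 over all genes measured.

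**Figure D1:**
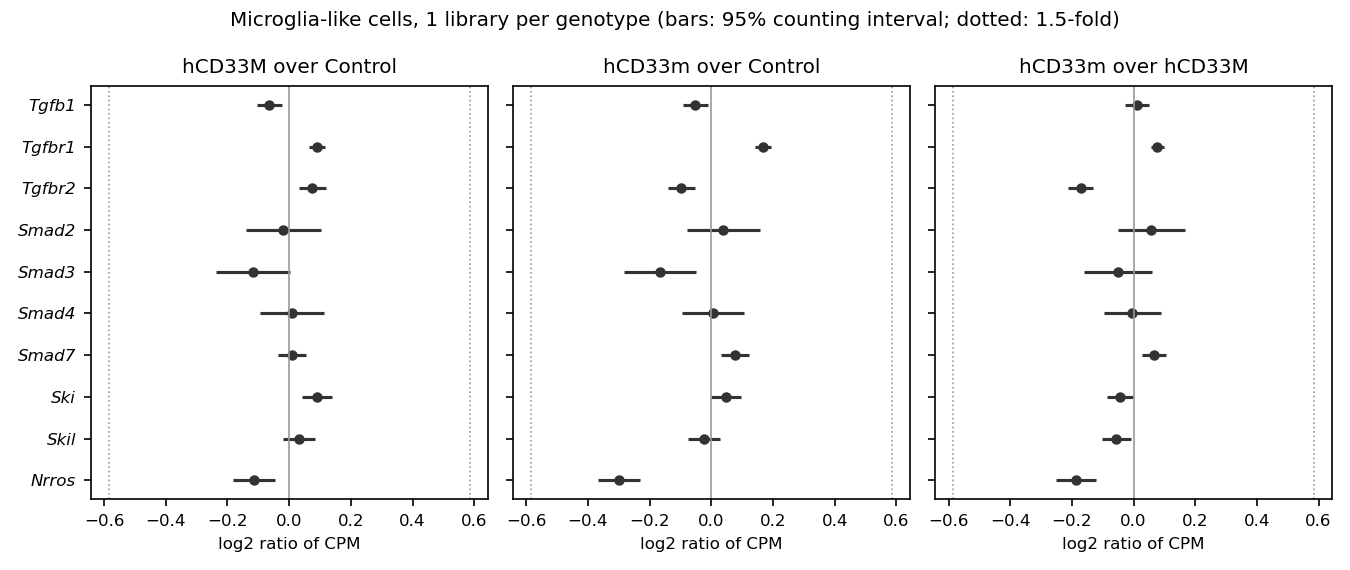
Log2 ratio of CPM in microglia-like cells between pairs of libraries (horizontal axis) for each of the 10 genes (vertical axis), with points for the ratio, bars for the 95% counting interval and dotted lines at 1.5-fold. All points lie between the dotted lines, with Nrros lowest at -0.30 and Tgfbr1 highest at 0.17 in hCD33m over Control.

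The other genes of the pathway, from lists of ligands and latency genes, receptors, Smads, regulators, Smad targets and microglial genes known to depend on TGF-beta, were near the libraries' common level as well. Over all genes measured, 1.22% were 1.5-fold apart for hCD33M over Control, 1.77% for hCD33m over hCD33M and 2.45% for hCD33m over Control. For hCD33M over Control and hCD33m over hCD33M, 0 of the 49 measured genes of these lists were 1.5-fold apart. For hCD33m over Control there was 1, a share near that of all genes. This was Cdkn1a, a cell cycle inhibitor and Smad target, which had 14.1 CPM in Control, 19.5 CPM in hCD33M and 25.6 CPM in hCD33m, with a log2 ratio of 0.86 (0.66 to 1.07) for hCD33m over Control. Cdkn1a is also among the leading genes of a small microglia-like cluster, cluster 10, that held 1 cell of Control against 163 of hCD33M and 162 of hCD33m. Without that cluster Cdkn1a had 14.1 CPM in Control, 14.8 CPM in hCD33M and 22.1 CPM in hCD33m, with log2 ratios of 0.07 (-0.16 to 0.30) for hCD33M over Control and 0.65 (0.44 to 0.86) for hCD33m over Control. Id2, a dominant-negative partner of helix-loop-helix factors, had 44.5, 42.7 and 60.5 CPM in Control, hCD33M and hCD33m. Both were highest in hCD33m.

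The related receptors of activins and bone morphogenetic proteins had a median log2 ratio of 0.17 for hCD33m over Control, with 8 of 8 measured genes above 0, beside 4837 of 9755 over all genes measured. Acvr1b, an activin receptor, had 12.5 CPM in Control, 13.4 CPM in hCD33M and 15.7 CPM in hCD33m, and its log2 ratio of hCD33m over Control, 0.33 (0.10 to 0.56), was the highest of the list. The Smad co-repressor Tgif1 had 44.8 CPM in Control, 43.7 CPM in hCD33M and 55.8 CPM in hCD33m. Pmepa1, an inhibitor that is induced by TGF-beta, had 1490 CPM in Control, 1522 CPM in hCD33M and 1317 CPM in hCD33m, with a log2 ratio of -0.21 (-0.23 to -0.19) for hCD33m over hCD33M. Fkbp1a, which binds type I receptors, had 107, 102 and 89.0 CPM in Control, hCD33M and hCD33m, and was lowest in hCD33m.

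The 14 TGF-beta-dependent microglial genes were all measured and had medians of -0.00, 0.02 and 0.07 for hCD33M over Control, hCD33m over Control and hCD33m over hCD33M. Tmem119, a microglial surface protein, had 1397 CPM in Control, 1538 CPM in hCD33M and 1751 CPM in hCD33m. Fcrls had 2196, 1840 and 2319 CPM in the same order, and was lowest in hCD33M. Gas6, a ligand of the phagocytic receptor Mertk, had 166, 152 and 132 CPM, with a log2 ratio of -0.33 (-0.40 to -0.26) for hCD33m over Control. Among ligands and latency genes, Itgav had 130, 139 and 134 CPM and Furin had 55.0, 59.2 and 57.7 CPM in Control, hCD33M and hCD33m. Tgfb2, Tgfb3, Ltbp3, Itgb8 and Thbs1 did not reach 5 CPM in any library, and the other 5 genes of this list of 12 were not among the genes of the count files.

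The second question was how the machinery differed between the myeloid classes of the same libraries. Of the 10 genes, 5 were lower in BAM-like than in microglia-like cells and 1 was higher, while 7 were lower in monocyte-like cells. The receptor Tgfbr1 and the inhibitors Smad7, Ski and Skil were lower in both classes, and Tgfbr2 was called lower in monocyte-like cells alone. Sums of UMIs per class and library were compared with edgeR's quasi-likelihood test with library as block, on a scale (TMM) that placed log2 differences 0.13 above those of plain CPM for BAM-like and 0.30 above them for monocyte-like cells. The classes come from clusters of these same cells, drawn without the 10 genes. The share of all 9464 genes called lower was 7.87% in BAM-like and 21.0% in monocyte-like cells, and the share called higher was 13.4% and 21.1%. In the comparison of monocyte-like with BAM-like cells, 17.8% of genes were called lower and 16.5% higher.

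Tgfbr1 had 755 CPM in the BAM-like cells of Control, 633 CPM in hCD33M and 801 CPM in hCD33m, below every microglia-like value. In monocyte-like cells it had 137, 160 and 165 CPM, with no overlap with the other classes. The log2 difference from microglia-like cells was -0.49 ± 0.09 (SE, edgeR adjusted p = 6.36e-05) in BAM-like and -2.56 ± 0.16 (edgeR adjusted p = 1.09e-16) in monocyte-like cells. Tgfbr2 was at 365, 349 and 388 CPM in BAM-like cells, which overlapped with microglia-like cells (edgeR log2 difference 0.08 ± 0.10 SE, adjusted p = 0.629). In monocyte-like cells it fell to 51.4, 81.9 and 140 CPM in Control, hCD33M and hCD33m, a log2 difference of -1.75 ± 0.20 (edgeR adjusted p = 1.37e-09).

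Smad7 had 234, 165 and 187 CPM in the BAM-like cells of Control, hCD33M and hCD33m, against 345 to 364 CPM in microglia-like cells. In monocyte-like cells it had 40.0, 49.1 and 84.9 CPM. Its log2 differences were -0.74 ± 0.10 (edgeR adjusted p = 2.98e-07) and -2.30 ± 0.22 (edgeR adjusted p = 2.07e-11), and the classes did not overlap. Ski had 228, 211 and 252 CPM in BAM-like cells and 74.2, 49.1 and 69.9 CPM in monocyte-like cells. Its log2 differences from microglia-like cells were -0.30 ± 0.09 (edgeR adjusted p = 0.0126) and -2.01 ± 0.20 (edgeR adjusted p = 9.93e-11). Skil, the relative of Ski, had 206, 188 and 186 CPM in BAM-like cells and 79.9, 57.3 and 99.9 CPM in monocyte-like cells, with log2 differences of -0.35 ± 0.09 (edgeR adjusted p = 0.00485) and -1.49 ± 0.19 (edgeR adjusted p = 3.98e-08). The inhibitors thus had the same order of classes in every library, microglia-like above BAM-like above monocyte-like. For BAM-like cells the call of Ski was lost without Control (edgeR adjusted p = 0.0723) or without hCD33M (0.144), and that of Skil without hCD33m (0.0566).

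Of the signal carriers, Smad3 alone was called in BAM-like cells. Smad2 did not pass there (log2 difference -0.01 ± 0.13, edgeR adjusted p = 0.974). Smad3 had 30.7, 31.9 and 36.3 CPM in BAM-like cells of Control, hCD33M and hCD33m, a log2 difference of -0.46 ± 0.14 from microglia-like cells (edgeR adjusted p = 0.0158), which was not called without Control (0.213) or without hCD33M (0.0636). In monocyte-like cells Smad3 rested on 3, 7 and 2 UMIs and Smad2 on 1, 4 and 7 UMIs in Control, hCD33M and hCD33m. Both were called lower there, with log2 differences of -1.08 ± 0.37 (edgeR adjusted p = 0.0174) and -1.05 ± 0.37 (edgeR adjusted p = 0.0219). The call of Smad3 was lost without Control (edgeR adjusted p = 0.0908) or without hCD33m (0.158), and that of Smad2 without Control (0.196) or without hCD33M (0.154). Smad4 had 87.4, 64.9 and 58.7 CPM in BAM-like and 79.9, 61.4 and 39.9 CPM in monocyte-like cells, on both sides of the microglia-like values, and passed no class test.

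Nrros was the 1 gene called higher in BAM-like cells, with 187, 182 and 159 CPM in Control, hCD33M and hCD33m against 163, 151 and 133 CPM in microglia-like cells. It was higher in 3 of 3 libraries, with a log2 difference of 0.36 ± 0.09 (edgeR adjusted p = 0.00330), although the ranges of the classes overlapped across libraries. In plain CPM the log2 ratio in Control was 0.20, with a counting interval that included 0 (-0.02 to 0.41). The interval also included 0 in the BAM-like cells with few microglial markers, described below (0.17, -0.11 to 0.45). Monocyte-like cells had 131, 156 and 180 CPM of Nrros, which did not pass the test (log2 difference 0.37 ± 0.17, edgeR adjusted p = 0.0715) but did without Control (0.53, edgeR adjusted p = 0.0388). Tgfb1 stood at 397, 326 and 321 CPM in BAM-like cells and 371, 504 and 315 CPM in monocyte-like cells, and neither class passed the test against microglia-like cells, except monocyte-like cells when hCD33m was left out (log2 difference 0.46, edgeR adjusted p = 0.0129). Between these classes Tgfb1 was called higher in monocyte-like cells (log2 difference 0.38 ± 0.14, edgeR adjusted p = 0.0364), but its CPM was higher in 1 of 3 libraries, hCD33M, and without hCD33M the log2 difference was 0.12 (edgeR adjusted p = 0.655). In that comparison, 6 genes were called lower in monocyte-like cells, with Tgfbr1 at -2.07 ± 0.16 (edgeR adjusted p = 5.64e-13) and Tgfbr2 at -1.84 ± 0.20 (edgeR adjusted p = 1.60e-09) the furthest apart. The call of Smad2 in that comparison (-1.04 ± 0.40, edgeR adjusted p = 0.0388) was lost without Control (0.298) or without hCD33M (0.182).

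**Figure D2:**
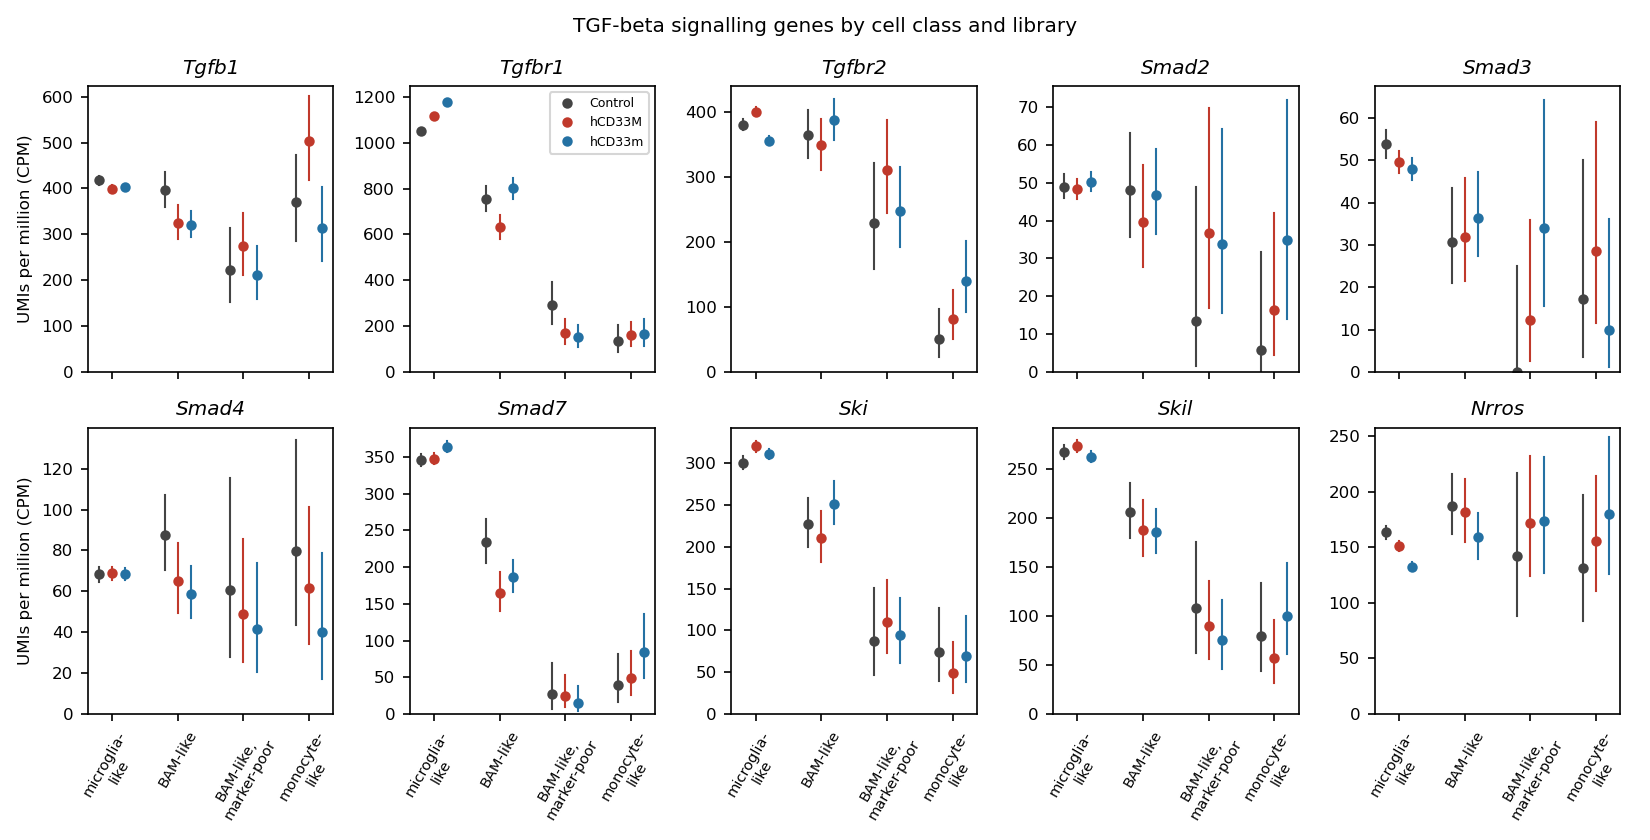
CPM (vertical axis, a separate scale from 0 for each gene) by cell class (horizontal axis) in Control, hCD33M and hCD33m, with points for the level, bars for the 95% Poisson interval, and the BAM-like cells with under 0.5% of UMIs from microglial markers (marker-poor) also shown apart. For Tgfbr1, Smad7, Ski and Skil the microglia-like points lie above those of the other classes in every library, while the BAM-like points of Nrros lie above the microglia-like ones of the same library and those of Smad4 lie on both sides of them.

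The BAM-like class was itself mixed. Of its 311 cells, 194 drew 0.5% or more of their UMIs from the microglial markers and had a median of 11611.5 UMIs, while 117 drew less and had a median of 5354 UMIs, and 32 lay between 0.4 and 0.6%. The 194 cells also carried the BAM markers, at a median of 0.301% of UMIs, beside 0.769% in the 117 cells and 0 in microglia-like cells. The limit of 0.5% was set after the values were seen, so the difference between these cells carries no test, and whether the deeper barcodes hold more than 1 cell was not tested. No doublets were removed. In the 117 marker-poor cells, pooled over the libraries, Smad7 had 14 UMIs and 21.3 CPM against 354 CPM in microglia-like cells, 16.6-fold lower (log2 -4.06, counting interval -4.93 to -3.31). By library it had 27.0, 24.5 and 15.1 CPM in Control, hCD33M and hCD33m, and was thus low in all 3 libraries. The Smad7 level of the BAM-like class as a whole was therefore set mainly by its marker-rich cells, which had 269, 217 and 223 CPM.

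Tgfbr1 showed the same feature, with 291, 172 and 151 CPM in the marker-poor cells of Control, hCD33M and hCD33m and 832, 803 and 940 CPM in the marker-rich cells. Pooled over libraries the marker-poor level was 190 CPM, 5.93-fold below the 1125 CPM of microglia-like cells. Ski and Skil were 3.16-fold and 3.04-fold lower in the marker-poor cells than in microglia-like cells, at 98.7 and 88.1 CPM. Smad3 had 0, 3 and 9 UMIs in the marker-poor cells of Control, hCD33M and hCD33m and was 2.74-fold lower when pooled. Tgfb1, which had not passed the class test, was 1.71-fold lower at 237 CPM, and Tgfbr2 was 1.41-fold lower at 267 CPM, both below microglia-like cells in 3 of 3 libraries. Nrros had 166 CPM, with a log2 ratio to microglia-like cells of 0.17 (-0.11 to 0.45), and was lower in 1 of 3 libraries.

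Across bins of the microglial marker share, Tgfbr1 had 150 CPM in the 46 BAM-like cells with under 0.25% and 216 CPM in the 71 cells with 0.25 to 0.5%. It had 547 CPM in the 37 cells with 0.5 to 1%, 677 CPM in the 53 cells with 1 to 1.5%, 957 CPM in the 66 cells with 1.5 to 2% and 990 CPM in the 38 cells with 2% or more. Smad7 went from 23.1 and 20.1 CPM in the lowest bins to 276 and 262 CPM in the highest. Nrros had 154, 173, 204, 175, 180 and 160 CPM over the same bins and showed no such order. The median depth of the cells rose as well, from 6120 and 5261 UMIs in the lowest bins to 20684 UMIs in the highest, and its part in these values was not tested.

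**Figure D3:**
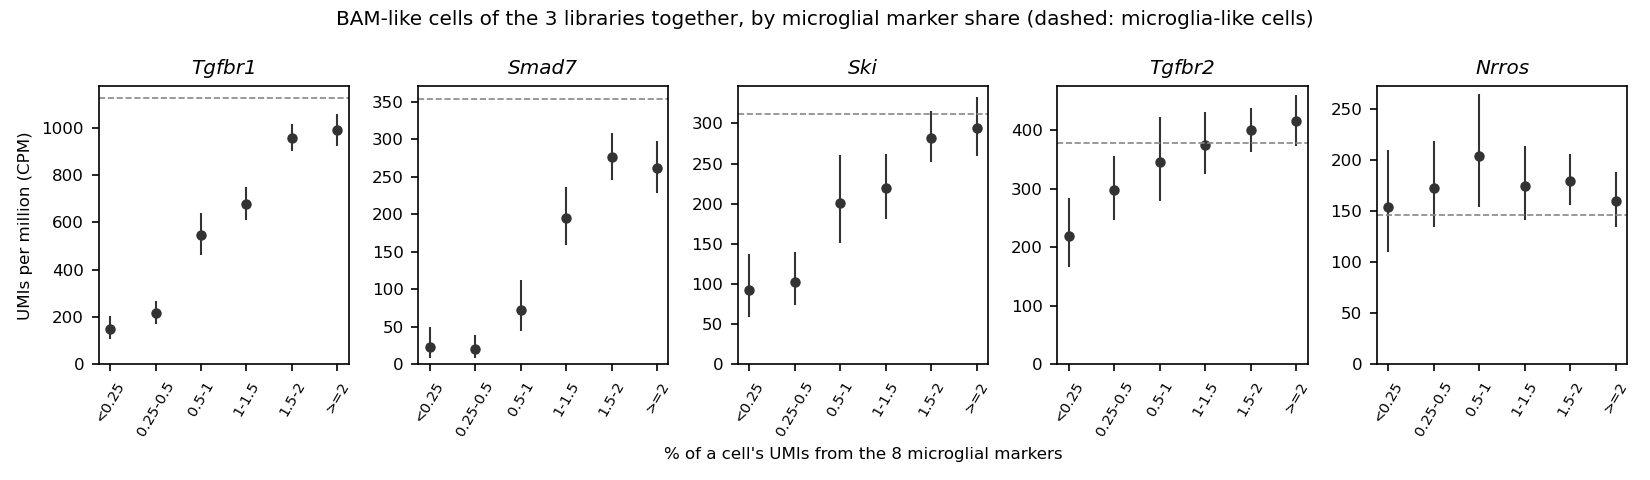
CPM (vertical axis, from 0) of 5 genes in BAM-like cells of the 3 libraries together, by the percentage of a cell's UMIs from the 8 microglial markers (horizontal axis), with bars for the 95% Poisson interval and a dashed line at the level of microglia-like cells. Tgfbr1 goes from 150 to 990 CPM and Smad7 from 23.1 to 262 CPM between the lowest and highest bins, while Nrros stays between 154 and 204 CPM.

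Monocyte-like cells were mostly marker-poor, 63 of 69. In these, Tgfbr1 was 13.7-fold below microglia-like cells at 82.0 CPM, Smad7 9.99-fold at 35.4 CPM, Ski 7.60-fold at 41.0 CPM, Tgfbr2 6.15-fold at 61.5 CPM and Skil 4.49-fold at 59.7 CPM. Tgfb1 at 421 CPM and Nrros at 164 CPM had intervals that included the microglia-like level. For the 5 genes above the intervals lay below that level in 3 of 3 libraries.

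The share of cells with at least 1 UMI, after each cell was thinned to 2000 UMIs, showed the same order for Tgfbr1. In microglia-like cells it was 85.4, 86.7 and 88.4% in Control, hCD33M and hCD33m, in BAM-like cells 57.9, 48.5 and 59.2% and in monocyte-like cells 22.2, 21.7 and 28.6%. Thinning left out 40 to 64 microglia-like, 1 to 8 BAM-like and 0 monocyte-like cells per library. The microglial marker P2ry12, which monocytes should lack, had shares of 0, 21.7 and 21.4% in the monocyte-like cells of Control, hCD33M and hCD33m, beside those of Tgfbr1, and the part of free RNA in the monocyte-like shares was not tested. Smad7 was seen in 48.6, 49.5 and 49.7% of microglia-like cells and 11.1, 4.35 and 14.3% of monocyte-like cells. Nrros was seen in 27.6, 25.5 and 24.0% of microglia-like cells, 30.3, 30.3 and 30.8% of BAM-like cells and 27.8, 34.8 and 28.6% of monocyte-like cells. The median depth before thinning was 5178 to 5564 UMIs in microglia-like, 6792 to 9022.5 in BAM-like and 5816 to 10635 in monocyte-like cells. Without thinning, the shares of Tgfbr1 were 98.6, 98.1 and 98.8% in microglia-like, 79.8, 76.0 and 78.0% in BAM-like and 61.1, 39.1 and 50% in monocyte-like cells of Control, hCD33M and hCD33m.

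Of the other pathway genes, the receptors for activins and bone morphogenetic proteins gave 3 lower and 1 higher of 8 tested in BAM-like cells, and 5 lower and 0 higher in monocyte-like cells. The shares over all genes were 7.87% lower and 13.4% higher in BAM-like cells, and 21.0% and 21.1% in monocyte-like cells. Acvrl1, a type I receptor, was higher in BAM-like cells (log2 difference 0.77 ± 0.17, edgeR adjusted p = 6.72e-04). The co-receptor Eng was lower in BAM-like cells (-0.44 ± 0.11, edgeR adjusted p = 0.00196) and in monocyte-like cells (-2.37 ± 0.35, edgeR adjusted p = 4.15e-07). Smad1 and Smad5, which carry the bone morphogenetic protein signal, were both lower in monocyte-like cells, by log2 differences of -1.51 ± 0.33 (edgeR adjusted p = 2.22e-04) and -1.60 ± 0.45 (edgeR adjusted p = 0.00388), and neither passed in BAM-like cells.

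Of 16 regulators tested, 1 was higher in BAM-like cells, Fkbp1a (log2 difference 0.69 ± 0.09, edgeR adjusted p = 1.40e-07), and 0 were lower. In monocyte-like cells 2 were higher and 4 were lower. Over all genes tested, 13.4% were called higher and 7.87% lower in BAM-like cells, and 21.1% and 21.0% in monocyte-like cells. Pmepa1 was lower, with 68.5, 77.8 and 120 CPM in the monocyte-like cells of Control, hCD33M and hCD33m against 1317 to 1522 CPM in microglia-like cells (log2 difference -3.73 ± 0.18, edgeR adjusted p = 1.17e-19). Zfyve9, also known as SARA, which presents Smads to the receptor, was higher, with 85.6, 69.6 and 99.9 CPM against 15.4 to 15.9 CPM in microglia-like cells (2.72 ± 0.27, edgeR adjusted p = 9.39e-11). The ligand and latency genes Furin, a protease that cleaves the precursor of the ligand, and Itgav, an integrin chain that takes part in its release, both passed in monocyte-like cells, Furin higher (0.70 ± 0.22, edgeR adjusted p = 0.0110) and Itgav lower (-0.69 ± 0.24, edgeR adjusted p = 0.0181), and neither passed in BAM-like cells.

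Of the 11 genes listed as Smad targets, 6 were tested. Of these, 5 were higher and 0 lower in monocyte-like cells, and 2 were higher and 1, Junb, lower in BAM-like cells. Among all genes, 21.1% were called higher and 21.0% lower in monocyte-like cells, and 13.4% and 7.87% in BAM-like cells. Tgfbi, an extracellular matrix protein, had 24.4 to 26.5 CPM in microglia-like cells, 223, 287 and 224 CPM in BAM-like cells and 536, 512 and 280 CPM in monocyte-like cells of Control, hCD33M and hCD33m. The log2 differences from microglia-like cells were 3.39 ± 0.11 (edgeR adjusted p = 2.19e-25) and 4.41 ± 0.16 (edgeR adjusted p = 2.18e-23). The microglia-like values of Tgfbi lay below those of both other classes, whose ranges overlapped. Klf10, a transcription factor known as a TGF-beta early gene, had 4.95 to 5.12 CPM in microglia-like cells and 62.8, 28.7 and 99.9 CPM in monocyte-like cells (3.89 ± 0.41, edgeR adjusted p = 2.32e-10). These genes have other regulators too, and their levels are not a measure of signalling. The TGF-beta-dependent microglial genes had 14 of 14 lower in monocyte-like cells and 11 lower and 1 higher in BAM-like cells, but 7 of them are markers used to name the classes and the list took part in the clustering, so the counts are a description. The 1 that was higher was Gas6, with 375, 487 and 381 CPM in BAM-like cells.

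The third question was whether the genes varied among microglia-like cells. Clusters come from the same cells and carry no test. Cluster 2, led by Lsp1, Klf2 and Tmem176a, was below the other microglia-like cells for 10 of 10 genes in 3 of 3 libraries, with log2 ratios from -0.37 to -0.08. Nrros was at -0.37 to -0.21 over the libraries, Skil at -0.34 to -0.22 and Smad2 at -0.32 to -0.30. The counting intervals of Smad3 and Smad4 lay below 0 in 2 and 1 of 3 libraries. Cluster 0, led by Gm26917 and Trim44, was above the other cells for 9 of 10 genes in 3 of 3 libraries, with Tgfbr2 at 0.16 to 0.23, Skil at 0.19 to 0.29 and Smad7 the exception at -0.01 to 0.11. The intervals of Smad4 and Nrros lay above 0 in 2 of 3 libraries. Cluster 0 had a median of 6020.5 UMIs and cluster 2 of 5093, and the part of depth in these ratios was not tested.

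Cluster 7, led by Ddit4, Tsix, Xist and early response genes, drew 84.5% of its cells from hCD33m after scaling for library size. Within it, Tgfbr1 was 0.06 to 0.09 above the other microglia-like cells in log2 and Tgfbr2 had log2 ratios of -0.22 to -0.05 over the libraries. The counting interval was clear of 0 in 1 library for Tgfbr1, hCD33m, and in 0 for Tgfbr2. Leaving this cluster out is among the settings under which the genotype ratio of Nrros kept to -0.32 to -0.28. Cluster 9, led by Ccl4, Top2a and Ccl3, was higher for Nrros in 3 of 3 libraries, by a log2 ratio of 0.28 to 0.39, and lower for Smad4, by -0.60 to -0.32. The intervals were clear of 0 in 2 libraries for Nrros and in 1 for Smad4. The interferon-led cluster 5 showed Tgfb1 below the others at -0.32 to -0.07, with the interval below 0 in 2 libraries but not in hCD33m (-0.23 to 0.09).

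Cluster 10, led by Cst7 and Vcam1, held 163 cells of hCD33M, 162 of hCD33m and 1 of Control, and was too small in Control for the rule of 30 cells in each library. It was described for the transgenic libraries after its values were seen. Tgfb1 in these cells was 262 CPM against 405 CPM in the other microglia-like cells of hCD33M and 272 against 409 CPM in hCD33m, log2 ratios of -0.63 (-0.81 to -0.45) and -0.59 (-0.74 to -0.44). Tgfbr1 was 668 against 1136 CPM in hCD33M and 912 against 1193 CPM in hCD33m, log2 ratios of -0.77 (-0.88 to -0.66) and -0.39 (-0.47 to -0.31). For Tgfbr2 and Ski the intervals included 0 in both libraries. The low ligand and type I receptor levels were therefore seen in both transgenic libraries, and in Control they could not be measured.

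**Figure D4:**
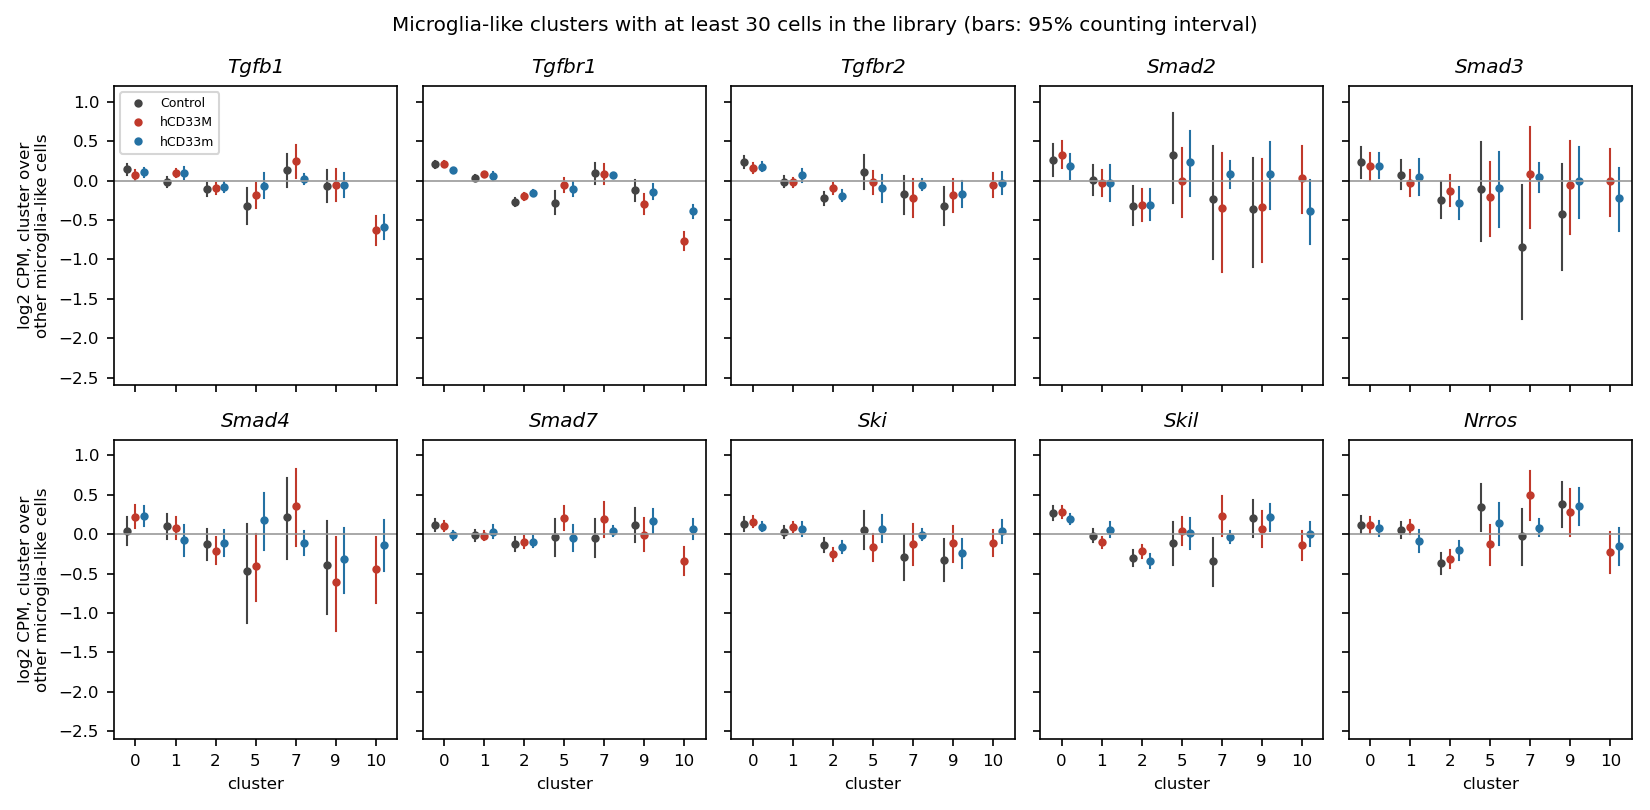
Log2 ratio of CPM in a microglia-like cluster over the other microglia-like cells of the same library (vertical axis) for clusters with at least 30 cells in the library (horizontal axis), with bars for the 95% counting interval. Points of cluster 2 lie below 0 for all 10 genes in the 3 libraries, and cluster 10 holds the lowest points of Tgfb1 and Tgfbr1, at -0.63 and -0.77 in hCD33M.

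The unnamed cells, with medians of 1052 to 1589 UMIs, had 1289, 1521 and 1696 CPM of Tgfbr1 and 548, 574 and 591 CPM of Tgfb1 in Control, hCD33M and hCD33m, above the microglia-like levels in each library. Ski, Skil and Smad4 were also above them in each library. Smad7, at 276, 248 and 300 CPM, was below them in each library, as were Tgfbr2 and Smad2. Smad3 and Nrros lay on both sides. The microglial marker share of the unnamed cells was 2.17 to 2.49%, close to that of microglia-like cells.

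The genes whose log2(CPM + 1) followed each member most closely were sought among 6698 genes over 29 sums of a cluster and a library. These sums share libraries and cell classes, so the coefficients are descriptions. Tgfbr1 was followed by Mertk (Pearson r = 0.91) and Ets1 (0.91), and Ski by Tle3 (0.91) and Dtx4 (0.90). Skil was nearest to Dst (0.89), Tgfb1 to Trpm4 (0.88), Smad7 to Anxa3 (0.80) and Smad3 to Csnk1d (0.79). Nrros had Hnrnpa3 (0.79) and then Wasl at 0.61, and for Tgfbr2, Smad2 and Smad4 the highest values were 0.75 (Arsg), 0.72 (Rnf11) and 0.72 (Fkbp9).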

How the data were processed

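Single cells of mouse brain were measured in 3 libraries (10x Chromium 3′). Reads had been aligned by the authors with Cell Ranger (STAR) against mm10, and the deposited values are UMI counts per gene and barcode with no scaling. The submitters' processing notes name Seurat and mm10. The annotation release was not given in the sources used here. Barcodes with 200 genes or fewer and genes found in fewer than 3 cells are absent from these tables.

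The limits of the study's filter were applied (200 to 8000 genes, 10% mitochondrial UMIs as upper limit, 200 UMIs as lower limit). This filter left out 219 of 14289 barcodes. The numbers of kept cells were slightly above those that the paper gives for its second experiment. Clustering used 2000 variable genes (without the 10 members, the other ligand, receptor, Smad and regulator genes, Smad targets, early response and sex-linked genes, but with the TGF-beta-dependent microglial genes), 15 principal components, 20 neighbours and Leiden resolution 0.5 (scanpy 1.11.5, leidenalg 0.10.2). Classes were named from marker lists. UMIs were summed per class and library and scaled to CPM. Ratios carry exact conditional and shares Clopper-Pearson 95% intervals, which cover counting error only. Depth was 19192806 to 29512381 UMIs in microglia-like, 908942 to 1516230 in BAM-like and 175213 to 244230 in monocyte-like sums, so small classes are least precise. Class differences were tested with edgeR 4.0.16 (R 4.3.3, TMM, quasi-likelihood, library as block, 9 sums, Benjamini-Hochberg over the 9464 genes that passed filterByExpr, which all 10 members passed). The script was tested on simulated data. The samples are 3 single libraries, each of another genotype. With library as block, class p-values rest on the spread of class differences over these libraries, which includes differences between genotypes. The fit draws the spread of each gene toward that of the other genes, so the p-values rest in part on other genes. These p-values do not measure spread among replicates of a genotype.

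The groups came from the genotype labels. Members, lists and markers were chosen with earlier results of these data known. Named genes were all members, list genes 1.5-fold apart or more where the higher library reached 5 CPM, the 2 highest and 2 lowest ratios of a list per pair, and for classes up to 4 genes a list with the lowest adjusted p and any in the opposite direction. The 3 most alike genes were sought among genes with a mean of at least 20 CPM over sums of at least 50 cells. Not every gene that met the rule is printed. Nrros was matched to Lrrc33 through its RefSeq synonym. Alternatives were other scalings, cell choices, filters, clusterings, tools (DESeq2 1.42.0) and depths, and 2 were added after seeing the data, leaving out marker-rich cells and leaving out cluster 10.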

Additional observations from a re-analysis of the deposited data

Results flagged for a closer look

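The direction of Tgfbr2 in BAM-like over microglia-like cells was not the same in the transgenic libraries. The log2 ratio of CPM was 0.12 (counting interval 0.00 to 0.24) in hCD33m, -0.20 (-0.37 to -0.04) in hCD33M and -0.06 (-0.21 to 0.09) in Control. The difference between libraries was not tested, since each genotype has 1 library. In the marker-poor BAM-like cells the ratios were -0.73, -0.37 and -0.52 in Control, hCD33M and hCD33m, all below 0. Of the BAM-like cells, 28 of 84 in Control, 44 of 100 in hCD33M and 45 of 127 in hCD33m were marker-poor.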

How the results depend on the processing

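Under every alternative 0 of 10 members were 1.5-fold apart between genotypes, and no class difference that passed its test changed direction. Each log2 ratio between genotypes was compared with the distance from the middle of its counting interval to its end. Of these ratios, 354 moved by no more than that distance and 6 by more. The 6 were each seen with cells thinned to 2000 UMIs, where Smad2 and Smad3 for hCD33m over hCD33M changed sign (-0.06 and 0.08). The median log2 ratio of the members ranged from -0.01 to 0.02 for hCD33M over Control, from -0.03 to -0.00 for hCD33m over Control and from -0.04 to -0.00 for hCD33m over hCD33M. Without a minimum level, 3, 8 and 7 other pathway genes were 1.5-fold apart for these pairs, in place of 0, 1 and 0, which adds genes with few UMIs, and with cells thinned to 2000 UMIs 1 was apart for hCD33M over Control. The class tests of members kept direction and call in 277 cases, lost the call in 21 and gained it in 2. The count of members lower in BAM-like cells was 3 to 4 with a library left out, in place of 5. It was 3 without Control or without hCD33M, where Smad3 and Ski were lost (edgeR adjusted p of 0.213 and 0.0723 without Control, 0.0636 and 0.144 without hCD33M), and Skil was lost without hCD33m (edgeR adjusted p = 0.0566). DESeq2 lost Smad3 there (adjusted p = 0.186). The count of members higher in monocyte-like than in microglia-like cells was 0 to 1 with a library left out, with Nrros gained without Control (log2 difference 0.53, edgeR adjusted p = 0.0388) and Tgfb1 without hCD33m (0.46, edgeR adjusted p = 0.0129). In monocyte-like against BAM-like cells the count higher was 0 to 1 with a library left out, and 0 in place of 1 (Tgfb1) under DESeq2, with no filter on low counts and with only those classes fitted. The fit without the library as block, which pairs the classes of a library, also gave 0 there (Tgfb1 edgeR adjusted p = 0.0692), and it changed no other call. Smad2 was called lower in monocyte-like cells under some settings only, with adjusted p from 0.00660 to 0.196 against microglia-like and from 0.0149 to 0.298 against BAM-like cells. The cause of these changes was not tested. Smad2 and Smad3 rested on 1 to 7 UMIs per monocyte-like sum. Of the shares of cells with a UMI, 90 moved with the thinning depth, as their construction implies.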
